A study of Mus musculus with 2 samples.

Results

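Genes that make, carry, sense and degrade retinoic acid were followed in the lenses of newborn mice that lacked Msx2, a homeobox transcription factor, in the lens lineage. The 9 genes were Aldh1a1, Aldh1a2, Aldh1a3, Stra6, Crabp1, Crabp2, Rarb, Cyp26a1 and Cyp26b1, and every non-control probe carrying one of these names was taken, which gave 11 probes of the 41174 on the array (9 of 27343 genes). One group was lens RNA of Msx2 conditional knockout (CKO) mice at postnatal day 1, in which Le-Cre deleted Msx2. The other was lens RNA of Msx2 wild-type mice at postnatal day 1, and the labels do not say whether these carried Le-Cre. Le-Cre is a transgene driven by a Pax6 enhancer, active in the surface ectoderm of the developing eye and so in lens and corneal epithelium. Each genotype was represented by 1 one-colour oligonucleotide array, on the same slide and in the same scan per the file headers. There is therefore no replicate check and no p-value for any difference, and the labels do not state how many animals gave each RNA.

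Retinoic acid is made from vitamin A, which cells take up with the help of the membrane receptor Stra6. Retinol dehydrogenases form retinaldehyde, the aldehyde dehydrogenases Aldh1a1, Aldh1a2 and Aldh1a3 oxidise it to retinoic acid, the small proteins Crabp1 and Crabp2 bind the product in the cytosol, and the cytochromes Cyp26a1 and Cyp26b1 degrade it. Retinoic acid acts through nuclear receptors such as Rarb, and in many cells it induces the genes of Rarb and Cyp26a1 themselves. In the developing eye it is made by the optic cup and the surface ectoderm and acts on the surrounding mesenchyme.

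The probes are the measuring sequences, so the first 30 of the 60 bases of each probe that gave a signal well above background on both arrays are shown, in the orientation of the file.
Aldh1a1: gactagttgtgacttaagctctgtccctca
Aldh1a2: aaccagctagctcccttcaacccacagtat
Aldh1a3: ggggattttgatcttaagttcagattgtgt
Stra6: cagcctcaggccggcagaagaagaagaagg
Rarb: aatgagtggttgacagactcaagtgtcggc
Cyp26a1: atcttcactaacaaggaggaatttaatccc
In mm9, the build of the files, the whole probes lie at chr19:20717764-20717823 (Aldh1a1), chr9:71143931-71143990 (Aldh1a2), chr7:73535785-73535844 (Aldh1a3), chr14:17263511-17263570 (Rarb) and chr19:37775566-37775625 (Cyp26a1). The Stra6 probe covers chr9:58000379-58000990, a span of 612 bases for 60 bases of probe, so it crosses a splice junction. Exon and UTR annotation of this build was not used here.

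Signals are Feature Extraction's processed intensities, corrected for background and not saturated on any spot. A difference is the log2 of the signal after division by the array's 75th percentile (203 units for CKO and 201 for wild type), CKO minus wild type. Well above background is the scanner software's own mark, and the lowest probe signal that carried it was 16.5 units in CKO and 16.6 in wild type. The Msx2 probe checked the labels, with 10 spots at 4.62 ± 1.77 units (SD over spots) in CKO and 10 spots at 371 ± 15.9 in wild type. It was at least 22.6-fold lower in CKO, where 7 of its spots held a surrogate value set by the software. Whether this probe lies in the deleted part is not stated. A measured gene is one with a probe well above background on both arrays, and there were 14221 of them. Their median difference was -0.12 with an SD across genes of 0.60, and different measured probes of the same gene disagreed with an SD of 0.36. Lens identity was clear on both arrays, since all 13 lens markers listed (crystallins, fibre membrane and filament genes, Foxe3, Pax6 and Prox1) were well above background on each.

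Of the 9 genes, 6 were measured (Aldh1a1, Aldh1a2, Aldh1a3, Stra6, Rarb and Cyp26a1), and Crabp1, Crabp2 and Cyp26b1 were not well above background on either array. Among all genes 40.9% had no probe well above background on either array. One of the 6, Aldh1a3, was at least 2-fold higher in CKO, against 4.11% of all measured genes, and 0 were at least 2-fold lower, against 3.98%. Over all genes these calls split into 584 higher and 566 lower, but into 470 and 844 when each array was scaled to its median. The median difference of the 6 was -0.03, and 3 of them lay within 0.1 of 0 on the log2 scale, as did 17.6% of all measured genes. Bulk lens RNA cannot tell fewer or more cells of a type apart from less or more RNA per cell.

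**Figure D1:**
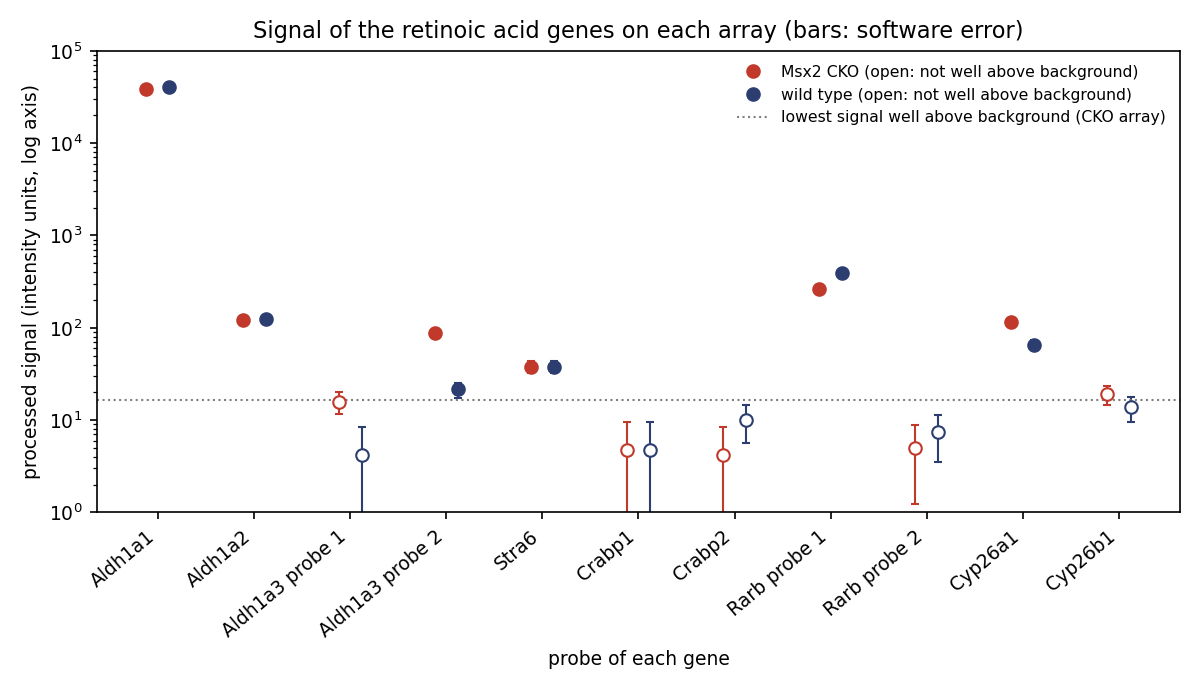
Processed signal (intensity units, log axis) of the 11 probes of the 9 genes on the CKO array (red) and the wild-type array (blue), with the software's error as bars and open symbols where the probe was not well above background. The pair of arrays coincide for Aldh1a1, Aldh1a2 and Stra6 and separate for Aldh1a3 (probe 2, 87.0 against 21.5 units), Rarb (probe 1, 264 against 396 units) and Cyp26a1 (115 against 65.7 units).

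The synthesis enzymes differed from one another. Aldh1a3, the aldehyde dehydrogenase of the ventral optic cup, gave 87.0 ± 9.30 units in CKO (1 spot, error from the scanner software) and 21.5 ± 3.94 in wild type. It was thus 4.03-fold higher in CKO, a log2 difference of 2.01 that 114 of the 14221 measured genes (0.80%) reached or passed. Both values exceed their stated errors, but the wild-type signal lay close to the lowest that counts as well above background. Under normexp, a background correction whose offset shrinks the differences of dim spots, the log2 value was 0.83, below 2-fold. The dim range holds more such differences in general: of measured genes below the median level, where Aldh1a3 also lies, 6.19% were at least 2-fold higher in CKO. A further Aldh1a3 probe, designed from another transcript and lying at chr7:73553907-73553966, gave 15.9 ± 4.24 units in CKO and 4.22 ± 4.2 in wild type. It was not well above background on either array, and its wild-type value was a surrogate set by the software, so it gives no fold.

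Aldh1a1, the aldehyde dehydrogenase of the dorsal optic cup, which is also abundant in lens, gave 38776 ± 3878 units in CKO and 40885 ± 4088 in wild type. The difference of -0.09 is smaller than the stated error of either spot. Its sign depended on the scaling: it was 0.19 with quantile normalization and 0.20 with intensity-dependent centring. Whether differences are compressed at such bright signals was not tested. Aldh1a2, the dehydrogenase of embryonic mesoderm and ocular mesenchyme, gave 120 ± 12.5 units in CKO and 123 ± 12.8 in wild type, a difference of -0.04 that is again within the error. Of the 3 synthesis enzymes, Aldh1a3 alone separated the arrays. Stra6, the uptake receptor, gave 38.0 ± 5.66 units in CKO and 38.0 ± 5.72 in wild type, and the signals did not separate (difference -0.01, with a positive sign under 3 of 7 alternative settings).

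**Figure D2:**
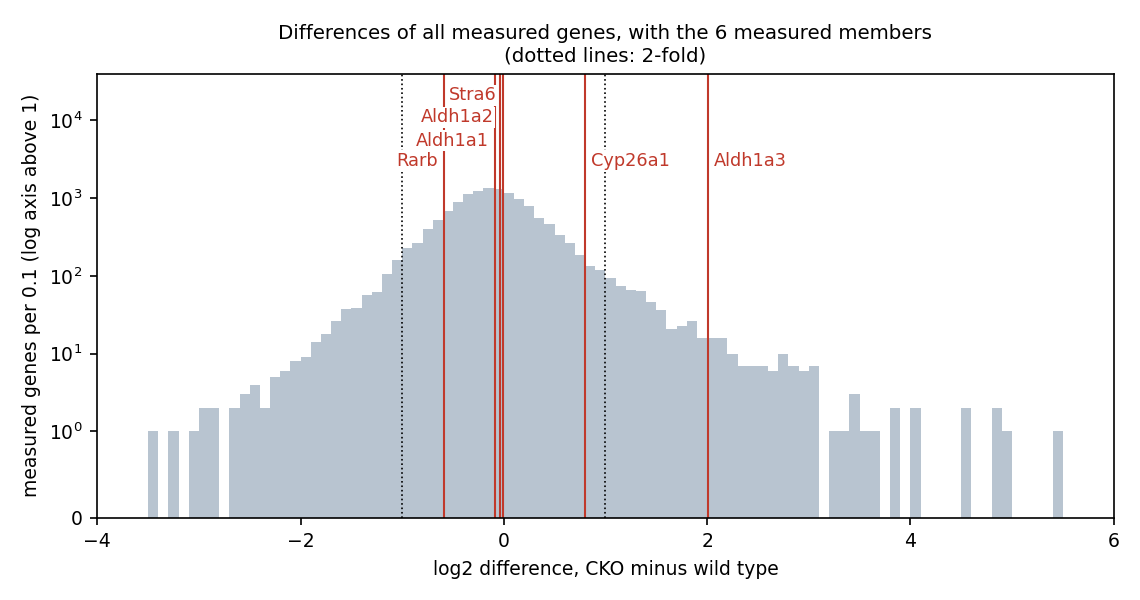
Histogram of the log2 difference (CKO minus wild type) of 14221 measured genes, on a logarithmic count axis, with red lines at the 6 measured retinoic acid genes and dotted lines at 2-fold. Aldh1a3 at 2.01 lies in the thin upper tail, Cyp26a1 at 0.80 on the upper flank, Rarb at -0.59 on the lower flank, and Aldh1a1, Aldh1a2 and Stra6 near the centre.

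Rarb, the retinoic acid receptor beta, was the gene of the set measured with most spots. One of its probes was printed 10 times on each array. In CKO, 9 usable spots lay between 245 and 281 intensity units with a median of 269, and in wild type 10 spots lay between 372 and 442 with a median of 394. The ranges did not overlap, and the CKO spot left out as a population outlier was lower than all of them (231 units). The means were 264 ± 11 units (SD over 9 spots) in CKO and 396 ± 21.4 (SD over 10 spots) in wild type, that is, 1.51-fold lower in CKO (log2 difference -0.59). The spots repeat the measurement of 1 RNA and not the genotype. Such separation is common on these arrays: among 104 measured probes with at least 9 usable spots on each array, 20 (19.2%) had every CKO spot below every wild-type spot and 39 (37.5%) had every CKO spot above. Across all measured genes, 2048 (14.4%) had a difference as low as that of Rarb or lower.

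**Figure D3:**
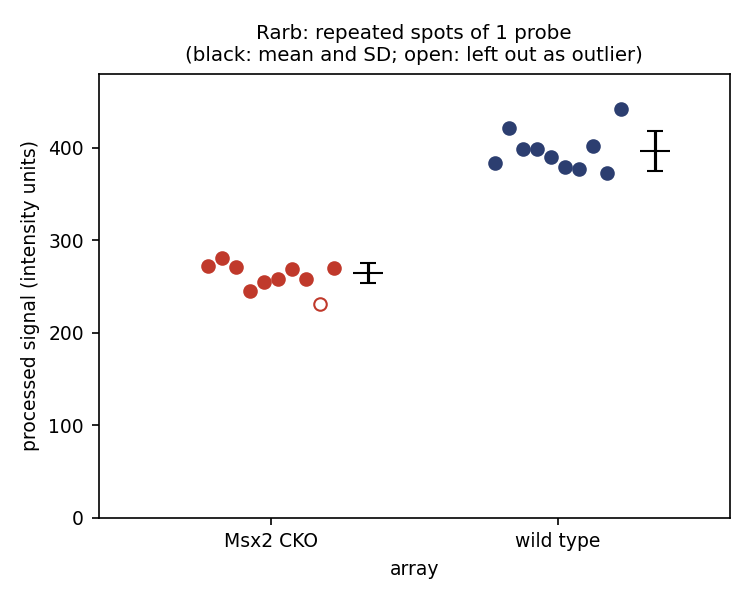
Processed signal (intensity units, axis from 0) of the repeated spots of the Rarb probe on each array, with mean and SD in black and the open symbol marking the spot left out as an outlier. The 9 usable CKO spots lie between 245 and 281 units, and the 10 wild-type spots lie between 372 and 442 units.

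Another Rarb probe reads 60 bases that lie 26709 bases apart from end to end in the genome (chr14:17381032-17407740), so it crosses at least one intron. It gave 5.04 ± 3.82 units in CKO and 7.46 ± 3.91 in wild type, not well above background on either array.

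Among the enzymes that degrade retinoic acid, Cyp26a1 was higher and Cyp26b1 was not measurable. Cyp26a1 gave 115 ± 12.0 units in CKO and 65.7 ± 7.46 in wild type, a gap larger than both stated errors. It was 1.74-fold higher in CKO (log2 difference 0.80, or 0.47 with normexp), and 833 measured genes (5.86%) reached or passed this value. Cyp26b1 gave 19.1 ± 4.55 units in CKO and 13.8 ± 4.16 in wild type, with errors that overlap. The binding proteins were dimmer still, with Crabp1 at 4.78 ± 4.76 units in CKO and 4.79 ± 4.77 in wild type. Crabp2 gave 4.2 ± 4.19 units in CKO and 10.1 ± 4.41 in wild type. Both Crabp1 values and the CKO value of Crabp2 were surrogates set by the software. The software marked none of these 3 genes as well above background on either array, so no fold is given for them.

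Rarb and Cyp26a1 are textbook direct targets of retinoic acid, and the sequence before their starts was read because they differed in opposite directions. RefSeq promoters (GRCm38.p6, 250 bases before to 50 after a start) were available for 7 of the 9 genes. They were searched on both strands for the receptor half-site (AGGTCA or AGTTCA or GGGTCA or GGTTCA) repeated in the same orientation with 5 bases between (DR5). The match of each gene is shown with its half-sites in capitals, read on the strand that carries the repeat.
Rarb: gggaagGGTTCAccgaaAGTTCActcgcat
Cyp26a1: acaaattAGTTCAcccaaAGTTCAtcttta
The printed stretches lie at chr14:16575506-16575535 for Rarb (gene on the minus strand, repeat on the gene's strand) and at chr19:37697770-37697799 for Cyp26a1 (gene on the plus strand, repeat on the opposite strand). The repeat itself runs from 53 to 37 bases upstream of the Rarb start and from 32 to 16 upstream of the Cyp26a1 start used by that table. In the RefSeq gene table, which spans all models of a gene, Cyp26a1 begins at 37697738 and Rarb, on the minus strand, begins at 17082331, so both matches fall inside a longer gene model. Only 32 of 32851 promoters (0.097%) held such a repeat, and the other 5 genes with a promoter held none. Repeats with 1 base between (DR1, 0.22% of promoters) or 2 (DR2, 0.27%) matched none of the 7. Of the genes with a DR5 match, 4 were measured, namely Cyp26a1 (0.80), Blvrb (0.62), Hbb-y (-0.28) and Rarb (-0.59). The search was prompted by the opposite differences of Rarb and Cyp26a1, so their signs say nothing further about the repeat. A match describes letters and does not show that a receptor was bound.

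The wider retinoid pathway was read from a list of 65 further genes, of which 63 had a probe and 36 were measured. Of these, 4 were at least 2-fold higher in CKO (Rbp3, Rdh5, Nr2f2 and Dkk2), against 4.11% of all measured genes, 2 were at least 2-fold lower (Bco1 and Fabp5), against 3.98%, and 30 lay in between. The median difference was -0.12, equal to that of all measured genes, with 18 of the 36 above it. In addition, 3 genes of the list passed the background mark on the CKO array alone, against 3.91% of all genes, and 3 on the wild-type array alone, against 3.15%. With normexp correction 1 gene of the list (Dkk2) stayed at least 2-fold higher and 1 (Fabp5) at least 2-fold lower.

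**Figure D4:**
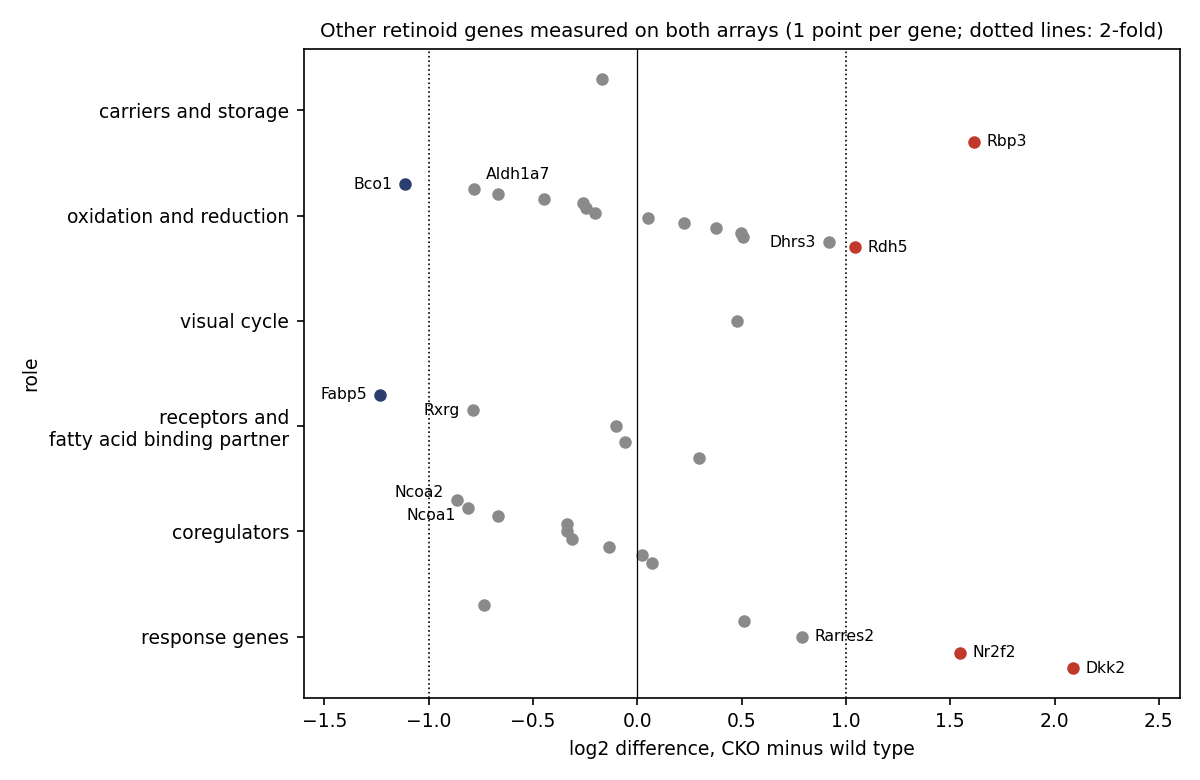
Log2 difference (CKO minus wild type) of the 36 measured genes of the wider retinoid list, 1 point per gene, arranged by role, with dotted lines at 2-fold and red or blue points beyond them. Rbp3, Rdh5, Nr2f2 and Dkk2 lie beyond 2-fold on the higher side and Bco1 and Fabp5 on the lower side, while no coregulator does.

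Among carriers, Rbp3, the retinoid-binding protein of the space between photoreceptors and pigment epithelium, gave 144 ± 14.8 units in CKO and 46.8 ± 5.92 in wild type (3.06-fold, or 1.90-fold with normexp). Rbp4, the retinol carrier of blood, gave 86.3 ± 9.27 units in CKO and was not well above background in wild type (13.6 ± 3.67), at least 5.17-fold. Under normexp its measured ratio was 2.04-fold.

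Of the enzymes that interconvert retinoids, 14 were measured, 1 at least 2-fold in each direction. Among all measured genes the shares were 4.11% higher and 3.98% lower. Rdh5, a retinol dehydrogenase of the pigment epithelium, gave 240 ± 24.3 units in CKO and 116 ± 12.1 in wild type (2.06-fold, but 1.89-fold with each array scaled to its median and 1.58-fold with normexp). Bco1, which cleaves carotene to retinaldehyde, gave 48.8 ± 6.79 units in CKO and 105 ± 11.5 in wild type, 2.16-fold lower in CKO (log2 difference -1.11, or -0.54 with normexp). Adh7, an alcohol dehydrogenase, was well above background in wild type only, where it gave 25.2 ± 4.91 units against 16.6 ± 4.59 in CKO. Its measured ratio was 1.53-fold lower in CKO, which is not a lower bound, and the stated errors overlap. With normexp the log2 difference of Adh7 was -0.07. Dhrs3 and Aldh1a7 were singled out after their values were seen. Dhrs3, a retinaldehyde reductase that retinoic acid induces, gave 458 ± 46.1 units in CKO and 241 ± 24.5 in wild type, 1.89-fold higher, and its other measured probe had a log2 difference of 1.10. Aldh1a7, a rodent gene closely similar to Aldh1a1 and so uncertain by probe, gave 3409 ± 341 units in CKO and 5833 ± 583 in wild type, 1.72-fold lower. In the visual cycle only the transporter gene Abca4 was measured, at 99.9 ± 10.6 units in CKO and 71.2 ± 8.0 in wild type.

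Of the receptors, Rxrg, a partner of the retinoic acid receptors, gave 753 ± 75.4 units in CKO and 1293 ± 129 in wild type, 1.73-fold lower in CKO. The other retinoid receptors measured, Rarg, Rxra and Rxrb, had differences of -0.06, -0.10 and 0.30 at their brightest probes. The other measured probe gave -0.55 for Rarg and 0.67 for Rxrb. Fabp5, which delivers retinoic acid to the receptor Ppard, gave 822 ± 82.3 units in CKO and 1921 ± 192 in wild type, 2.35-fold lower. Ppard was well above background in wild type only, with 41.7 ± 7.07 units there against 28.3 ± 6.33 in CKO, a log2 difference of -0.23 with normexp. All 9 coregulators were measured and 0 passed 2-fold, against 4.11% of all measured genes higher and 3.98% lower. The coactivator genes with the largest differences were Ncoa2 (-0.87 at its brightest probe, while another probe gave 0.08) and Ncoa1 (-0.81).

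Of 14 genes known to respond to retinoic acid elsewhere, 5 were measured, 2 of them at least 2-fold higher, against 4.11% of all measured genes. Dkk2, a Wnt antagonist of the ocular mesenchyme, gave 128 ± 13.2 units in CKO and 29.9 ± 4.53 in wild type (4.25-fold, or 2.16-fold with normexp). Nr2f2, an orphan nuclear receptor of vessels and mesenchyme, gave 98.1 ± 10.5 units in CKO and 33.4 ± 5.07 in wild type (2.92-fold, or 1.53-fold with normexp), and its other measured probe had a log2 difference of 1.17. The transglutaminase gene Tgm2 gave 143 ± 14.8 units in CKO and 15.6 ± 3.86 in wild type, at least 8.59-fold higher, with a log2 difference of 1.32 under normexp.

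Many markers of cells that surround the lens were also higher on the CKO array, and their part in the retinoid differences was not tested. For comparison, 4.11% of measured genes were at least 2-fold higher in CKO, and 3.91% of all genes were well above background in CKO only. Of 6 ciliary body and iris markers 3 were at least 2-fold higher or well above background in CKO only, with a summed signal (in units of the 75th percentile) of 4.81 in CKO and 2.55 in wild type. The same held for 5 of 9 pigment cell markers (5.62 and 4.47), 3 of 11 retina markers (2.41 and 2.49), 7 of 10 markers of corneal stroma and ocular mesenchyme (60.4 and 4.30), 8 of 9 vessel markers (26.0 and 8.39) and 11 of 13 macrophage markers (30.1 and 4.80). None of the 8 markers of surface epithelium did so (3.97 and 5.21). In the other direction, the surface epithelium gene Krt1 was 9.36-fold lower in CKO and the retina gene Elavl4 4.75-fold lower. Krt13 and Krt14 were well above background in wild type only. Of the pigment cell markers, Mitf was 1.87-fold and Oca2 1.72-fold lower in CKO, short of 2-fold. These genes were named after their values were seen. Among defining markers that were not well above background on either array were Tyr of pigment cells, Kera of corneal stroma, Krt12 of corneal epithelium, and Crx and Nrl of photoreceptors. The summed signal of the 13 lens markers was 6346 in CKO and 7383 in wild type.

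**Figure D5:**
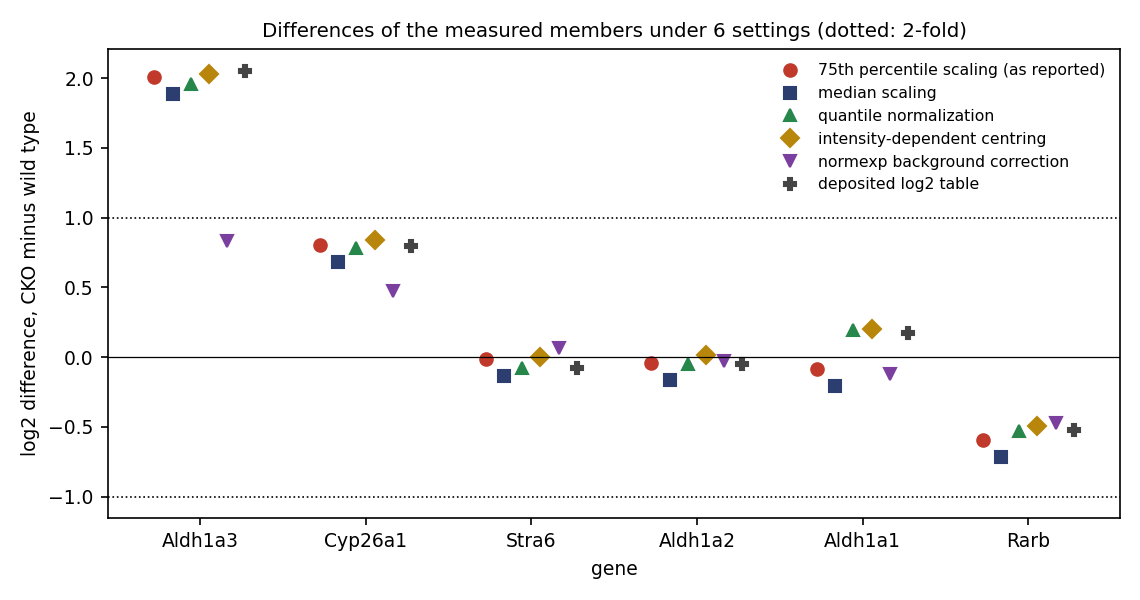
Log2 difference (CKO minus wild type) of the 6 measured retinoic acid genes under 6 ways of processing, 1 symbol per setting, with dotted lines at 2-fold. Aldh1a3 stays above 0 in these settings but falls to 0.83 with normexp, Cyp26a1 stays between 0.47 and 0.84, Rarb between -0.71 and -0.47, and Aldh1a1, Aldh1a2 and Stra6 lie around 0.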

How the data were processed

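RNA integrity was checked before Cy3 labelling, per the labels. Per the file headers, the authors' scanner files (array design 014868, Feature Extraction 10.7.3.1) hold linear spot intensity values, background-corrected and detrended and not scaled between arrays. A deposited log2 table of both arrays, with its scaling and shift unstated, served as an alternative.

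Control, population-outlier and non-uniform spots were left out, spots of a probe were averaged as log2, and the array's 75th percentile was subtracted. A probe was well above background when over 50% of its spots were marked so. Each gene took its brightest measured probe. A gene seen on 1 array got an at-least fold, against the higher of the other array's lowest well-above signal and the probe's own signal there. Where the probe's own signal was the higher, the value is the measured ratio and not a bound. Names outside the members were updated with a RefSeq table (GRCm38.p6), by accession for 27668 probes. Members, lists and the naming rule were chosen with earlier results of these data known. The named genes of the wider list are those at least 2-fold different, the 2 largest differences per role and those seen on 1 array. Some of these are not reported here. The procedure was run on simulated data with equal noise at all signal levels and set changes well beyond 2-fold. That run checks the code and does not measure the error of these arrays. Python 3.11.15 and, for normexp (offset 50), limma 3.58.1 in R 4.3.3 were used.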

Additional observations from a re-analysis of the deposited data

How the results depend on the processing

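The measured genes kept their size within the spread between probes of a gene (SD 0.36) in 41 of 42 recomputations. The exception was Aldh1a3 with normexp (0.83). Of the 42, 6 could not move, since averaging probes changes nothing for genes with 1 measured probe. Nor could those with median scaling or with the median of all genes set to 0. Both of these settings shift every gene by a constant smaller than that SD. The sign of Aldh1a1 turned in 4 of 7, of Stra6 in 3 and of Aldh1a2 in 2, and of Aldh1a3, Cyp26a1 and Rarb in 0. Aldh1a3, the single gene of the 9 at least 2-fold higher, left none (0) with normexp, and at 1.5-fold there were 2 higher and 1 lower. With no filter on detection 1 was lower, the undetected Crabp2. In the wider list the count of 4 higher became 1 with normexp, 7 with no filter and 2 at 3-fold. The count of 2 lower became 1 with normexp, 4 with no filter, 9 at 1.5-fold and 0 at 3-fold. Over all measured genes, median scaling gave 470 higher and 844 lower in place of 584 and 566 (35.8% higher in place of 50.8%), and intensity-dependent centring 650 and 448 (59.2%). Normexp gave 233 and 218, and no filter 2026 and 1753 of 27343 genes. Setting the median of all genes to 0 was added after seeing the data. No paired analysis was possible because each genotype has 1 array. Signals near 16.5 units limit what Aldh1a3 in wild type, Cyp26b1 and both Crabp genes can show.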
